A study of Mus musculus with 8 samples.

Results

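The genes described here encode transporters that carry amino acids, sugars and monocarboxylates such as lactate across cell membranes. They were taken from the array design by name, as every gene name that begins with Slc1a, Slc2a, Slc3a, Slc5a, Slc6a, Slc7a, Slc16a, Slc36a, Slc38a or Slc43a. This gave 103 of the 34821 gene names on the array, measured by 140 probes and belonging to 10 families. A name was represented by the brightest of its probes that the scanner software called well above background on 4 or more arrays out of 8. Of the 103 names, 53 met that limit and could be tested, and 35 of these were well above background on all 8 arrays. Slc2a4rg-ps, a pseudogene of a regulator of Slc2a4, and Slc7a6os, a gene on the opposite strand of Slc7a6, carry such names without being transporters.

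The samples were RFP+ invading macrophages and GFP+ resident microglia, sorted by fluorescence from the brains of C57BL/6 bone marrow chimeras. Every mouse had undergone 30 min of focal ischemia by occlusion of the middle cerebral artery (MCAo) and 7 d of reperfusion, with no further treatment, so that both groups came from injured tissue. Macrophages and microglia were represented by 4 samples each, 1 of either kind from each of the animals A to D, which are replicates 1 to 4. No uninjured brain was compared, the age of the animals is not given in the sources used here, and the RNA was amplified by PCR before labelling.

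Solute carriers move small molecules down or against their gradients, often coupled to sodium, protons or the exchange of another solute. Phagocytes use them to take up glucose, glutamine, arginine and cystine, to release lactate, and to move amino acids out of the lysosome. In the healthy brain the Slc1 family clears glutamate, chiefly in astrocytes, Slc2a1 brings glucose across the endothelium, and Slc2a5, a fructose carrier, is known as a transporter of microglia.

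The 60-base probes of the 5 genes that passed the test below are printed first, because a value on this array is a statement about these stretches of the transcript and not about the whole gene. They are given 5′ to 3′ in lower case with no base singled out, as they stand in the array files, and their coordinates are those of the files in build mm9. Exons and untranslated regions were not assigned, since no annotation of that build was used. Slc38a6 is shown with both of its probes, since these gave different results. Its first probe, which stands for the gene, lies at chr12:74413109-74413168 and the second at chr12:74452745-74452804, both on the plus strand. The Slc1a3 probe lies at chr15:8584236-8584295 on the minus strand, the Slc2a5 probe at chr4:149517775-149517834 on the plus strand, the Slc38a10 probe at chr11:119989740-119989799 on the minus strand and the Slc7a7 probe at chr14:54989166-54989225 on the minus strand.
Slc1a3: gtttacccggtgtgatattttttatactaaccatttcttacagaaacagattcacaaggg
Slc2a5: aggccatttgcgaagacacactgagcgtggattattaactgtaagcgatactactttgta
Slc38a10: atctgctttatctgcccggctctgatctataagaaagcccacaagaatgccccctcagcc
Slc38a6, first probe: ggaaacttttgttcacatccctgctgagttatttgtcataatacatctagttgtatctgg
Slc38a6, second probe: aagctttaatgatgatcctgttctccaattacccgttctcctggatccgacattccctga
Slc7a7: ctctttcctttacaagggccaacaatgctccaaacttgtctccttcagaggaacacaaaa

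Macrophage replicate 2, from animal B, stood apart from the other arrays. It correlated with the other macrophage arrays at r = 0.855 to 0.887 across genes, while those correlated with each other at 0.943 to 0.960 (genes are not independent replicates). The share of the 55681 probes called above background ran from 45.7% to 57.1% per array, with none saturated. The marker lists followed the labels: of 13 genes of homeostatic microglia 9 were lower in macrophages and none higher, and of 13 monocyte genes 8 were higher and none lower, against 4.14% of all gene names lower and 2.51% higher. With the animal as a block in the same test (limma, adjusted p under 0.05), 5 microglia genes were lower and 5 monocyte genes higher, against 2.45% and 1.29% of all gene names. The microglia list summed to 258 times the array's 75th percentile on macrophage replicate 2. It summed to 527 to 603 times on the other macrophage arrays and 1189 to 1501 times on the microglia arrays. Endothelial genes were also present. Of 16 endothelial markers 13 to 16 were well above background on the macrophage arrays, against 6 to 7 on the microglia arrays, and their summed signal was 1376 times the array's 75th percentile on macrophage replicate 2. On the other 3 macrophage arrays this sum ran from 32.1 to 205, and on the microglia arrays from 7.64 to 34.0. On every microglia array 8 of the 16, Cdh5, Tie1, Erg, Ptprb, Slco1a4, Slco1c1, Esam and Itm2a, were not well above background. The erythroid markers summed to 206 on macrophage replicate 2, 2.43 to 7.47 on the other macrophage arrays and at most 1.42 on the microglia arrays. Transporter calls that change without macrophage replicate 2 are therefore given with and without it, and other differences only in part.

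Invading macrophages had less transcript than resident microglia for 5 of the 53 tested genes, of which 51 are transporters: the glutamate carrier Slc1a3, the fructose carrier Slc2a5, the amino acid carriers Slc38a10 and Slc38a6, and the exchanger Slc7a7. None was higher. Signals are log2 values relative to the 75th percentile of the same array, and differences are macrophages minus microglia (limma, Benjamini-Hochberg adjusted p under 0.05 over 19750 gene names). Among all gene names tested, 2.51% were higher and 4.14% lower by the same rule. The median difference of the 53 was -0.14, against 0.02 over all gene names tested, and 31 of the 53 differences lay below 0. Without adjustment, 13 of the 53 had p under 0.05, 4 of them higher and 9 lower, and 23.9% of all gene names tested did. In 8 of the 53 every macrophage array lay below every microglia array, as in 9.46% of all gene names, and in 1, Slc6a6, every macrophage array lay above, as in 7.48%. In these bulk samples less RNA per cell and fewer cells that carry the transcript cannot be told apart.

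Slc1a3 (EAAT1 or GLAST), a sodium-coupled carrier that takes up glutamate and aspartate, had log2 signals of -3.27, -1.66, -2.97 and -3.94 in macrophage replicates 1 to 4, against 3.61, 3.58, 3.55 and 3.80 in microglia. The microglia arrays had an SD of 0.11 (n = 4), and of the macrophage arrays only replicates 2 and 3 were well above background. The difference was -6.60 ± 0.44 (SE; limma, adjusted p = 8.6e-05). With signals under an array's floor raised to that floor, the lowest signal among its probes well above background, Slc1a3 was at least 94.2-fold lower in macrophages. It was lower in 4 of 4 animals and passed the test in each of the 8 fits that left out 1 array. Slc1a3 met the filter on signal above background through its 4 microglia arrays, the group where it is high. The summed signal of 9 astrocyte markers was 2.59 to 7.91 on the macrophage arrays and 1.15 to 2.2 on the microglia arrays. Of the 6 tested, 1 was higher and none lower, against 2.51% and 4.14% of all gene names. Their part in the Slc1a3 values was not tested.

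Slc2a5 (GLUT5), the fructose carrier, had log2 signals of -5.34, 0.29, -5.36 and -1.05 in macrophages, against 4.96, 4.80, 4.75 and 5.12 in microglia. Macrophage replicates 1 and 3 were not well above background, and replicate 2 was the highest of the 4. The difference was -7.77 ± 1.24 (SE; limma, adjusted p = 0.00857) and, without macrophage replicates 1 to 4 in turn, -6.95, -8.83, -6.94 and -8.38. Raised to the array floors in the same way, Slc2a5 was at least 119-fold lower in macrophages, lower in 4 of 4 animals and past the threshold in all 8 fits without 1 array. Like Slc1a3, it met the filter through its 4 microglia arrays.

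The other 3 differences were smaller. Slc38a10, a member of the sodium-coupled neutral amino acid carriers, had log2 signals of 2.73, 1.84, 2.25 and 2.71 in macrophages, against 3.58, 3.43, 3.83 and 3.81 in microglia, a 2.43-fold difference (limma, adjusted p = 0.0249). Slc38a6, of the same family, had 4.43, 4.80, 4.31 and 4.18 in macrophages, against 5.62, 5.43, 5.28 and 5.75 in microglia, and was 2.13-fold lower in macrophages (limma, adjusted p = 0.0256). Its second probe showed no such separation, with 2.94, 1.34, 3.09 and 3.09 in macrophages against 2.83, 2.57, 3.01 and 2.30 in microglia and a difference of -0.06. On this probe macrophage replicate 2 was the lowest array, and in animals A, C and D the macrophage value was the higher, opposite to the first probe. Slc7a7 (y+LAT1), which exchanges cationic for neutral amino acids and is mutated in lysinuric protein intolerance in humans, had 0.92, -0.02, 0.29 and 0.03 in macrophages, against 1.75, 1.35, 1.21 and 1.40 in microglia, a 2.17-fold difference (limma, adjusted p = 0.0451). In all 3 the groups did not overlap, and all 4 animals had the lower value in macrophages.

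**Figure D1:**
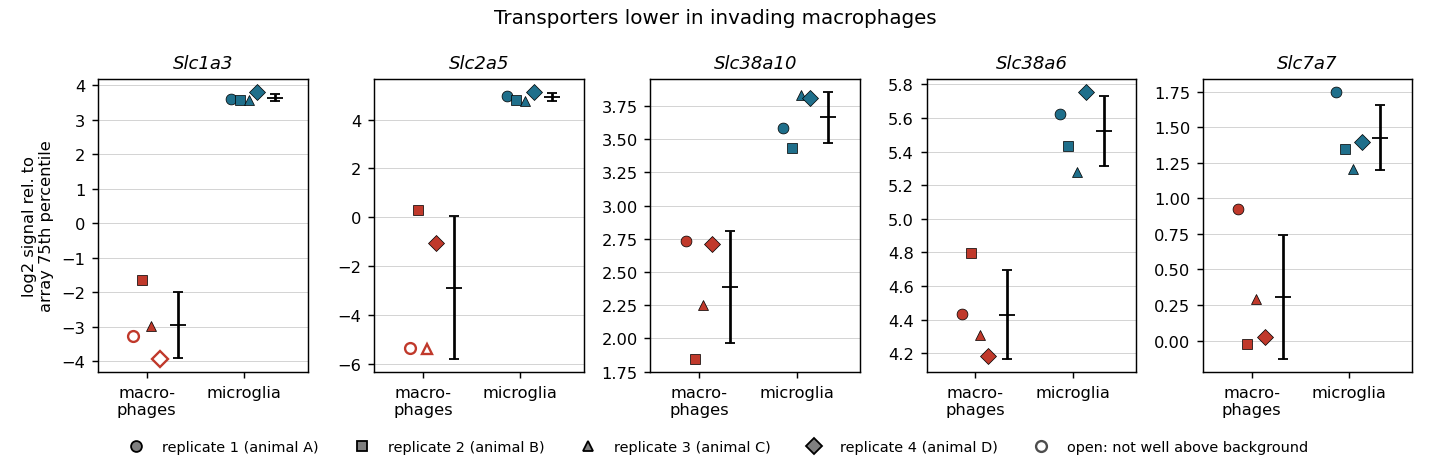
Log2 signal relative to the array's 75th percentile (y axis) of the 5 transporters that were lower in macrophages, for the 4 macrophage arrays (left, red) and the 4 microglia arrays (right, blue) of animals A to D, with mean and SD beside the points. Open points were not well above background; in each panel every macrophage array lies below every microglia array, and in Slc1a3 and Slc2a5 the microglia points lie close together between 3.55 and 5.12.

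Slc1a3 and Slc2a5 were also called with the animal as a block (limma, adjusted p = 0.00467 and 0.0304), a fit that found 1.29% of all gene names higher and 2.45% lower; no transporter was higher in it. Slc38a10, Slc38a6 and Slc7a7 were not (limma, adjusted p = 0.0581, 0.0824 and 0.0667), and they passed in 3, 1 and 2 of the 8 fits without 1 array: Slc38a10 without macrophage replicate 1, 2 or 4, Slc38a6 without macrophage replicate 2, and Slc7a7 without macrophage replicate 1 or 2. The arrays had been run on 2 slides, with macrophage replicate 1 and microglia replicates 1 and 2 on slide 1. With the slide as a block none was higher and 2 were lower, against 1.37% and 2.93% of all gene names. Within slide 1 none was higher and 3 were lower (0.258% and 0.891% of all gene names), and within slide 2 none was higher and 1 was lower (0.0405% and 0.577%). With slide and animal together 1 was higher and 3 were lower, against 1.3% and 2.38% of all gene names, and with array quality weights 4 were higher and 7 lower, against 10.2% and 8.46%. The 3 within slide 1 were Slc1a3, Slc2a5 and Slc5a10, and none of them was well above background on the only macrophage array there, so that slide 1 gives bounds alone: at least 117-fold lower in macrophages for Slc1a3 and at least 316-fold for Slc2a5. Within slide 2 the difference of Slc1a3 was -6.53 and passed, and that of Slc2a5 was -6.98 and did not (limma, adjusted p = 0.0375 and 0.222). With 1 macrophage array on slide 1, the slide 1 fit assumes that it varies like the microglia arrays there.

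Without macrophage replicate 2, 7 transporters were lower and 6 higher in macrophages, in a fit that called 6.86% of all gene names lower and 8.25% higher. The 5 above were all among the 7. The 6 higher ones were Slc6a6, Slc7a2, Slc1a5, Slc6a8, Slc43a3 and Slc16a10, and the 2 further lower ones were Slc16a6 and Slc5a10. No macrophage array in that fit measured Slc5a10 above background, while Slc16a6 was well above background on all 8 arrays. The median SD among macrophage arrays over the 53 genes was 0.94 with replicate 2 and 0.41 without it, and the median SD among microglia arrays was 0.41. Macrophage replicate 2 was the highest of the macrophage arrays in 35.8% of the 53 and the lowest in 45.3%, against 22.0% and 49.8% of all gene names tested.

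**Figure D2:**
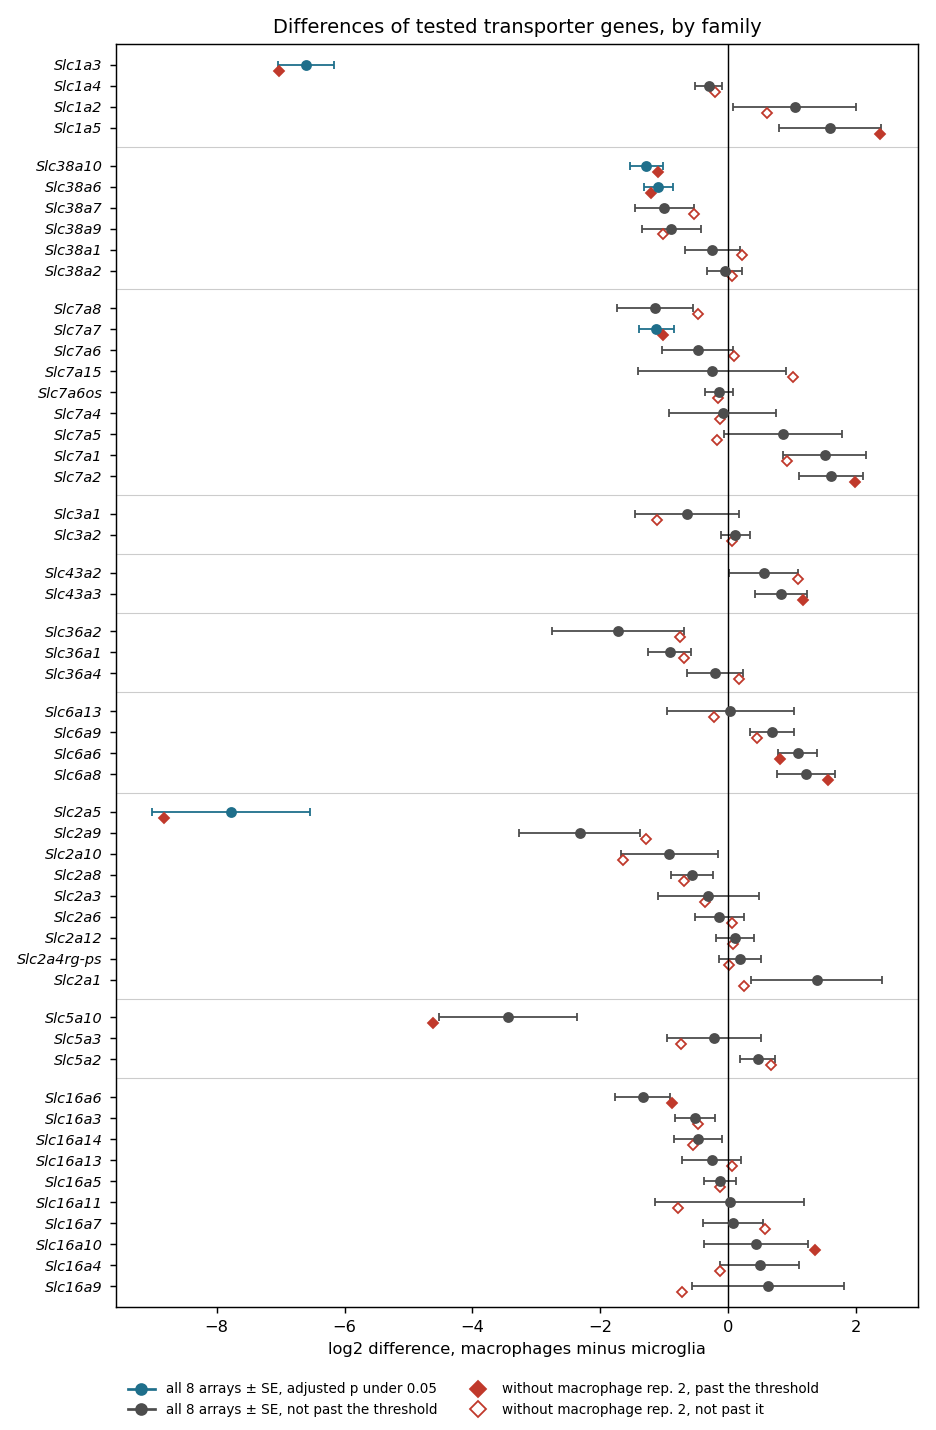
Log2 difference, macrophages minus microglia (x axis), of the tested members by family (1 of the 53 is not drawn), over all 8 arrays (circles with SE; blue past an adjusted p of 0.05, grey not) and without macrophage replicate 2 (diamonds; filled past it). The 5 blue circles lie left of 0, Slc1a3 and Slc2a5 far from the rest, and the filled diamonds right of 0 belong to the 6 genes that were higher without macrophage replicate 2.

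Among the glutamate and neutral amino acid carriers of the Slc1 family, 4 of 7 members could be tested, and Slc1a3 alone passed the threshold over all arrays. Slc1a5 (ASCT2), which exchanges glutamine and other neutral amino acids, had log2 signals of 0.97, -1.77, 0.93 and 2.09 in macrophages, against -2.07, -1.38, -0.57 and -0.15 in microglia. The 3 macrophage arrays other than replicate 2 lay above all microglia arrays. Slc1a5 differed by 1.60 over all arrays (limma, adjusted p = 0.261) and by 2.37 without macrophage replicate 2, or 5.18-fold (limma, adjusted p = 0.0232). Slc1a4 (ASCT1), a carrier of alanine, serine and cysteine, averaged 7.04 ± 0.20 in macrophages and 7.35 ± 0.21 in microglia (SD, n = 4 each). Slc1a2 (GLT-1), the main glutamate carrier of astrocytes, was well above background on 3 macrophage and 2 microglia arrays, at -2.34 ± 1.5 in macrophages and -3.38 ± 1.71 in microglia. The neuronal carrier Slc1a1 was measured on macrophage replicate 2 alone, Slc1a6 on 2 microglia arrays and Slc1a7 on none.

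Of the Slc38 family, the sodium-coupled neutral amino acid transporters, 6 of 11 members were tested, all on 8 arrays. All 6 differences lay below 0 at a median of -0.94, although Slc38a2 turned above 0 with arrays centred on their medians, and Slc38a1 and Slc38a2 did so without macrophage replicate 2. Slc38a1 and Slc38a2, which concentrate glutamine and alanine in many cells, differed by -0.25 and -0.05 (limma, adjusted p = 0.766 and 0.927). Slc38a2 had log2 signals of 2.99, 2.83, 3.26 and 3.55 in macrophages, against 2.70, 3.34, 3.17 and 3.63 in microglia, so that the groups overlapped throughout. The 95% interval of its difference ran from -0.68 to 0.57. Slc38a9, a lysosomal arginine sensor for mTORC1, differed by -0.89 and Slc38a7, a lysosomal glutamine carrier, by -1.0 (limma, adjusted p = 0.288 and 0.225). Without macrophage replicate 2 they differed by -1.02 and -0.53 (limma, adjusted p = 0.210 and 0.174). Slc38a11 was measured on 3 macrophage arrays and no microglia array, and Slc38a4 and Slc38a8 on none.

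The Slc7 family holds the cationic amino acid carriers and the light chains that pair with Slc3a2 (CD98 heavy chain) or Slc3a1, and 9 of its 16 members were tested. The groups overlapped for Slc3a2, with 5.55, 5.68, 5.47 and 5.44 in macrophages against 5.87, 5.10, 5.39 and 5.33 in microglia, and an interval of the difference from -0.40 to 0.63. Slc3a1, the partner of renal cystine transport, differed by -0.64 (limma, adjusted p = 0.668). Slc7a8 (LAT2), a light chain for neutral amino acids, had 1.47, -1.14, 1.62 and 1.55 in macrophages, against 2.07, 1.97, 2.03 and 2.01 in microglia. Every macrophage array was lower, replicate 2 by far the most. The difference of -1.15 (limma, adjusted p = 0.276) was -0.47 without replicate 2 (limma, adjusted p = 0.100).

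Slc7a2 (CAT-2), an arginine carrier of activated macrophages, had -1.10, -2.34, -0.69 and -0.69 in macrophages, against -3.82, -1.85, -3.02 and -2.56 in microglia. It was higher in 3 of 4 animals, by 1.61 on average (limma, adjusted p = 0.0987), and by 1.99 without macrophage replicate 2 (limma, adjusted p = 0.0248). Slc7a1 (CAT-1), the cationic amino acid carrier of most cells, had 0.88, 4.15, 2.33 and 2.19 in macrophages, against 0.14, 1.5, 0.58 and 1.29 in microglia. The groups overlapped, with the higher value in macrophages in 4 of 4 animals, and the difference of 1.51 did not pass (limma, adjusted p = 0.198), nor did that of 0.92 without macrophage replicate 2 (limma, adjusted p = 0.214). Slc7a11 (xCT), which exports glutamate for cystine, was well above background on macrophage replicate 2 and microglia replicate 4 alone and was not tested. Slc7a6, Slc7a15, Slc7a4 and Slc7a6os differed by -0.48 to -0.09 (limma, adjusted p = 0.634 to 0.964). Without macrophage replicate 2 Slc7a15 and Slc7a6 turned above 0, at 1.01 and 0.10. Over all arrays the 3 probes of Slc7a15 differed by 0.23, 0.17 and -0.25, with macrophage replicate 2 the lowest array on each.

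Both tested members of the Slc43 family had the higher mean in macrophages, under each scaling tried. Slc43a3, a purine nucleobase carrier, had 1.70, 0.50, 1.68 and 2.15 in macrophages, against 0.37, 0.52, 1.45 and 0.35 in microglia. It differed by 0.83 over all arrays (limma, adjusted p = 0.253) and by 1.17 without macrophage replicate 2 (limma, adjusted p = 0.0480). Slc43a2 (LAT4), a leucine carrier, differed by 0.55 and by 1.09 without that array (limma, adjusted p = 0.573 and 0.0697).

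In the Slc36 family of proton-coupled amino acid carriers, 3 of 4 members were tested and none passed. Slc36a1 (PAT1), which exports small amino acids from lysosomes, had 2.36, 0.84, 1.81 and 1.13 in macrophages, against 2.36, 2.46, 2.33 and 2.65 in microglia. It was lower in 4 of 4 animals with a mean difference of -0.91 (limma, adjusted p = 0.148), although in animal A the values were nearly equal, 2.357 in macrophages against 2.364 in microglia. Slc36a2 and Slc36a4 differed by -1.72 and -0.21. Slc36a2, not well above background on macrophage replicates 1 and 2, differed by -0.75 without replicate 2, and Slc36a4 turned above 0 with arrays centred on their medians and without macrophage replicate 2. A list of 7 lysosomal and proton-coupled amino acid carriers (Slc36a1 to Slc36a4, Slc38a7, Slc38a9 and Slc7a14) had 5 tested members, none called. The median difference was -0.91 over all arrays and -0.68 without macrophage replicate 2. The summed signal of the list was 4.03 to 11.5 times the array's 75th percentile on the macrophage arrays, 4.03 being replicate 2. On the microglia arrays it was 12.6 to 14.8 times.

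Of the 20 Slc6 carriers, which move neurotransmitters, taurine, creatine and glycine with sodium and chloride, 5 were tested, and the median difference was 0.69. The differences of Slc6a6, Slc6a8 and Slc6a9 lay above 0 under each scaling tried. That of Slc6a13 lay above 0 over all arrays, but below 0 with normexp background, without macrophage replicate 2, and when the percentile was computed from the probes detected on every array. Slc6a6 (TauT), the taurine carrier, had 4.36, 5.24, 4.02 and 4.0 in macrophages, against 3.36, 3.43, 3.12 and 3.38 in microglia. Every macrophage array lay above every microglia array, and replicate 2 was the highest. The difference was 1.09 over all arrays (limma, adjusted p = 0.0734) and 0.81 without replicate 2, or 1.75-fold (limma, adjusted p = 0.0337).

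Slc6a8, the creatine carrier, had 1.33, -0.46, 0.71 and 0.71 in macrophages, against -0.13, -1.58, -0.16 and -0.70 in microglia. The groups overlapped, but within each of the 4 animals the macrophage value was the higher, by 1.22 over all arrays (limma, adjusted p = 0.151) and by 1.56 without macrophage replicate 2 (limma, adjusted p = 0.0376). Slc6a9 (GlyT1, glycine) and Slc6a13 (GAT2), a carrier of GABA, lay below the 75th percentile on every array and differed by 0.69 and 0.04. The monoamine carriers Slc6a2, Slc6a3 and Slc6a4 were below the background call on all 8 arrays. Of 13 transporters known from astrocytes and neurons, 2 to 6 were well above background on the macrophage arrays and 2 to 6 on the microglia arrays, and none of the 4 tested passed.

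**Figure D3:**
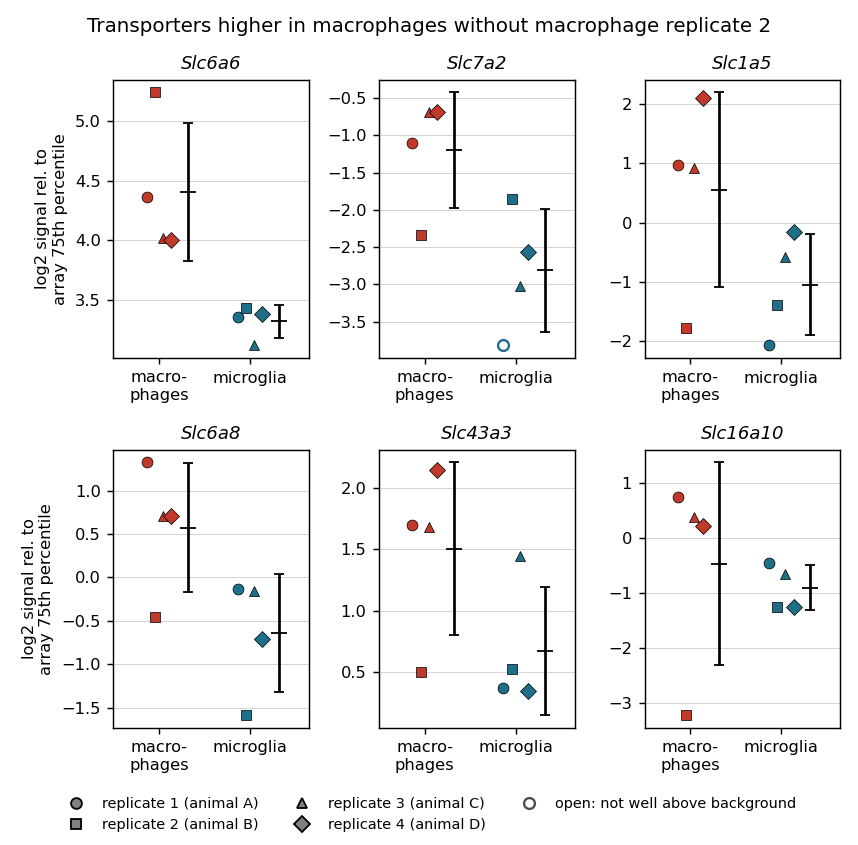
Log2 signal relative to the array's 75th percentile (y axis) of the 6 transporters that were higher in macrophages (left, red) than in microglia (right, blue) when macrophage replicate 2 (red square) was left out; bars give mean and SD of all 4 arrays. The red square is the lowest macrophage point in 5 panels and the highest, at 5.24, in Slc6a6.

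Among the facilitative sugar carriers of the Slc2 family, 9 of 13 members were tested, and Slc2a5 alone passed. Slc2a1 (GLUT1), the glucose carrier of the blood-brain barrier and of many cells, had 0.56, 5.42, 1.84 and 0.23 in macrophages, against 0.78, 0.12, 0.65 and 0.95 in microglia. Its difference was 1.39 over all arrays (limma, adjusted p = 0.447) and 0.25 without macrophage replicate 2 (limma, adjusted p = 0.712). Slc2a3 (GLUT3), a high-affinity glucose carrier of neurons and leukocytes, was dim in both, measured on 2 macrophage and 3 microglia arrays, and differed by -0.31. Slc2a6, a carrier of lysosomes, had 1.61, 1.13, 2.03 and 2.04 in macrophages, against 2.47, 1.52, 2.33 and 1.04 in microglia, overlapping values with a difference of -0.14.

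Slc2a9, a urate carrier, had -3.03, -6.28, -1.66 and -1.72 in macrophages, against -0.40, -0.95, -1.43 and -0.61 in microglia. Every macrophage array lay below every microglia array, with replicates 1 and 2 not well above background, and the difference of -2.32 did not pass (limma, adjusted p = 0.179), nor did that of -1.29 without macrophage replicate 2 (limma, adjusted p = 0.0733). Slc2a8, Slc2a10 and Slc2a12 differed by -0.56, -0.92 and 0.11, and Slc2a10 by -1.65 without that array. Slc2a10 was well above background on macrophage replicate 2 and 3 microglia arrays alone. The -1.65 therefore rests on macrophage signals below the background call. Slc2a2, the glucose carrier of liver and pancreatic beta cells, and Slc2a13 were below the background call throughout. Slc2a4, the insulin-responsive carrier of muscle and fat, was measured on macrophage replicate 2 alone.

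Of the 13 sodium-coupled Slc5 carriers 3 were tested, and 7 were below the background call on all 8 arrays. Slc5a10, a sugar carrier known from the kidney, had -5.17, -0.98, -5.92 and -5.83 in macrophages, against -0.02, -0.41, -1.79 and -1.88 in microglia. Of the macrophage arrays only replicate 2 was well above background. The fitted difference over all arrays was -3.45 (limma, adjusted p = 0.0973), and with signals raised to the array floors Slc5a10 was at least 3.90-fold lower in macrophages. Without replicate 2 no macrophage array measured it, so that its call in that fit (limma, adjusted p = 0.00181) rests on a bound, at least 6.21-fold lower in macrophages, and on its 4 microglia arrays for passing the filter. Slc5a3 (SMIT1), the myo-inositol carrier, differed by -0.22 and Slc5a2 (SGLT2), the renal glucose carrier, by 0.46 (limma, adjusted p = 0.886 and 0.350). A second probe of Slc5a3, well above background on 7 arrays, differed by -1.71 (limma over all passing probes, adjusted p = 0.206).

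The Slc16 family carries lactate, pyruvate and ketone bodies with protons, and some members carry other substrates such as aromatic amino acids; 10 of its 14 members were tested without a call over all arrays. Slc16a3 (MCT4), the lactate exporter of glycolytic cells, had -0.62, -0.53, -0.32 and -0.06 in macrophages, against 0.15, 0.56, 0.52 and -0.68 in microglia. The groups overlapped, and the 95% interval of the difference ran from -1.24 to 0.20. For Slc16a1 (MCT1) all 8 arrays were below the background call. Slc16a7 (MCT2), a lactate and pyruvate carrier, differed by 0.07 over all arrays and by 0.57 without macrophage replicate 2 (limma, adjusted p = 0.942 and 0.136). A second probe of it differed by -1.40 over all arrays, with macrophage replicate 2 at -6.31 and the other arrays between -2.66 and -1.28. The other tested members, Slc16a4, Slc16a5, Slc16a11, Slc16a13 and Slc16a14, differed by -0.47 to 0.50 (limma, adjusted p = 0.489 to 0.993). Without macrophage replicate 2 they differed by -0.79 to 0.07, Slc16a4 and Slc16a11 then below 0 and Slc16a13 above it.

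Slc16a6 (MCT7) had 3.30, 1.59, 3.32 and 3.57 in macrophages, against 3.96, 4.41, 4.29 and 4.45 in microglia. Every macrophage array lay below every microglia array, by -1.33 over all arrays (limma, adjusted p = 0.106) and by -0.88 without macrophage replicate 2 (limma, adjusted p = 0.0300). Slc16a10 (TAT1), a carrier of aromatic amino acids, had 0.74, -3.22, 0.39 and 0.21 in macrophages, against -0.46, -1.25, -0.66 and -1.25 in microglia. Without macrophage replicate 2 it was 2.55-fold higher in macrophages (limma, adjusted p = 0.0196), and over all arrays the difference was 0.44 (limma, adjusted p = 0.776). Its 2 other probes differed by 0.24 and -0.17 over all arrays, with macrophage replicate 2 the lowest array on both, at -3.01 and -6.31. The other macrophage arrays were at -1.43 to -0.87 and -2.17 to -1.41 on these probes, against -2.46 to -1.67 and -3.04 to -2.05 in microglia. Slc16a9 was at 3.05 on macrophage replicate 2 and between -2.46 and -2.19 on the other macrophage arrays, against -2.80 to -0.80 on the microglia arrays. Its difference of 0.62 over all arrays became -0.72 without macrophage replicate 2.

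Monocarboxylate carriers reach the cell surface with a partner, basigin (Bsg) or embigin (Emb). Emb was higher in macrophages, with log2 signals of 2.08, 1.47, 2.05 and 1.64 against -0.26, -1.88, -0.72 and -0.24 in microglia. It was 5.99-fold higher (limma, adjusted p = 0.00665) and passed with the animal as a block (limma, adjusted p = 0.0205) and in all 8 fits without 1 array. Bsg, which endothelial cells of the brain also carry in quantity, had 6.53, 8.22, 6.75 and 6.39 in macrophages against 6.35, 6.08, 6.41 and 6.40 in microglia, and did not pass (limma, adjusted p = 0.350).

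Transporters known from the blood-brain barrier were set beside the endothelial markers. Of 10 such members 6 were tested, none was called over all arrays and 1, Slc6a6, was higher without macrophage replicate 2, and their median difference was 0.97 over all arrays and 0.16 without macrophage replicate 2. The summed signal of the 10 was 189 times the array's 75th percentile on macrophage replicate 2 and 66.5 to 72.4 on the other macrophage arrays, against 51.0 to 73.2 on the microglia arrays. Slc7a5 (LAT1), which carries large neutral amino acids into the brain, had -0.34, 4.43, 1.14 and 0.11 in macrophages, against 0.50, 0.65, 0.49 and 0.25 in microglia. It differed by 0.86 over all arrays and by -0.17 without macrophage replicate 2 (limma, adjusted p = 0.605 and 0.772). Slc38a3, a glutamine carrier, was at 2.83 on macrophage replicate 2 and -1.19 on replicate 3, and was below the background call on the other macrophage arrays and on all microglia arrays. Slc38a5 was well above background on macrophage replicate 2 alone, at 0.18. The endothelial markers, of which 6 of 13 tested genes were higher in macrophages (2.51% of all gene names), 2 with the animal as a block (1.29%) and 9 without macrophage replicate 2 (8.25%), were highest on the same 2 arrays, and their part in these values was not tested. Of the 50 members that could not be tested, 26 were well above background on no array, 14 on macrophage replicate 2, 8 of them there only, and 0 to 5 on each of the other arrays.

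**Figure D4:**
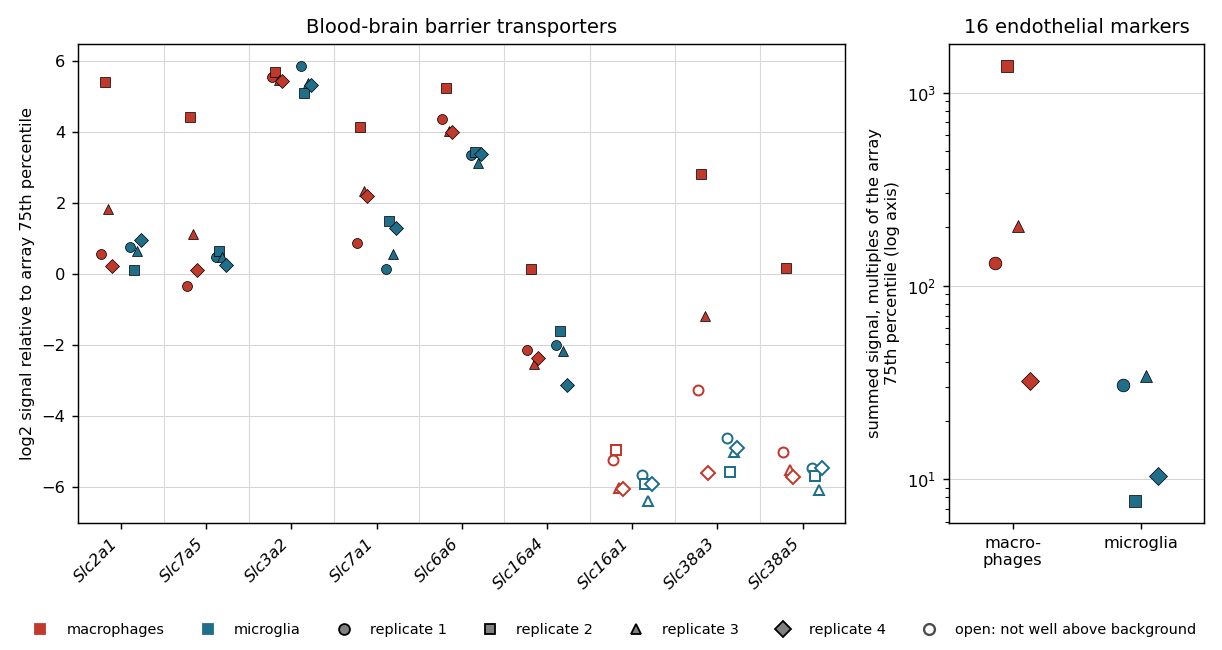
Left, log2 signal relative to the array's 75th percentile (y axis) of 9 of the 10 transporters of the blood-brain barrier list (x axis) on the macrophage arrays (red) and the microglia arrays (blue); open points were not well above background. Right, the summed signal of 16 endothelial markers on the same arrays (log axis), 1376 on macrophage replicate 2 (red square), which is also the highest point for Slc2a1, Slc7a5, Slc7a1, Slc6a6, Slc16a4, Slc38a3 and Slc38a5.

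Genes of the pathways that these carriers feed were also counted. Of 23 tested glycolysis genes 1 was higher and 1 lower in macrophages, near the 2.51% and 4.14% of all gene names. Pfkp, the platelet isoform of phosphofructokinase, had 2.75, 3.15, 3.27 and 3.38 in macrophages, against -0.09, 0.05, 0.99 and 1.15 in microglia, a 6.11-fold difference (limma, adjusted p = 0.00317). Ldhb, the lactate dehydrogenase subunit known from tissues that use lactate, had -0.98, -0.81, -2.67 and -1.44 in macrophages, against 2.63, 2.32, 1.60 and 2.35 in microglia, and was 13-fold lower in macrophages (limma, adjusted p = 0.00193). Both passed with the animal as a block and in all 8 fits without 1 array. Without macrophage replicate 2 the glycolysis list had 4 genes higher (Pfkp, Tpi1, Pgam1 and Eno1) and 2 lower (Ldhb and Eno3), in a fit that called 8.25% of all gene names higher and 6.86% lower.

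Of 29 tested genes of lysosomal amino acid sensing by mTORC1, none was higher and 1 lower, near the 2.51% and 4.14% of all gene names. The lower one was Rptor, the scaffold of the complex. It had 1.54, 0.36, 1.23 and 1.45 in macrophages, against 2.77, 3.0, 2.72 and 2.91 in microglia, and was 3.26-fold lower in macrophages (limma, adjusted p = 0.0118), though not with the animal as a block (limma, adjusted p = 0.0537). Of the 14 tested hypoxia-inducible genes 1 was higher and 2 lower, against 2.51% and 4.14% of all gene names. The higher one was Epas1, a hypoxia-inducible transcription factor abundant in endothelium. It stood at 3.96, 7.55, 4.64 and 3.87 in macrophages, the highest being replicate 2, against 1.70, -2.16, 1.16 and 0.51 in microglia (limma, adjusted p = 0.0320). Its difference of 4.70 became 3.85 without macrophage replicate 2 and 3.88 without microglia replicate 2. Pdk1, a kinase that inhibits pyruvate dehydrogenase, and P4ha1, a subunit of the collagen prolyl hydroxylase, were 4.21-fold and 3.27-fold lower in macrophages (limma, adjusted p = 0.0196 and 0.0391). None of the 3 passed with the animal as a block (limma, adjusted p = 0.120, 0.0726 and 0.0706), and each passed in 3 of the 8 fits without 1 array.

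The remaining lists had no call over all arrays. In glutathione synthesis and cystine use (9 tested), Gclm, the modifier subunit of the rate-limiting ligase, had 0.41, 0.53, 1.21 and 1.22 in macrophages, against -0.58, -0.44, -0.40 and 0.23 in microglia, and missed the threshold (limma, adjusted p = 0.0559). Without macrophage replicate 2 Gclm, Gss, Gpx4 and Txnrd1 were higher, 4 of the 9 against 8.25% of all gene names. Under the animal block, Ggt5, which cleaves leukotrienes and glutathione, was lower, by -1.68 (limma, adjusted p = 0.0383). In glutamine and glutamate metabolism (8 tested), glutamine synthetase, Glul, differed by -1.49 (limma, adjusted p = 0.152) and by -2.0 without macrophage replicate 2 (limma, adjusted p = 0.0167). In the amino acid response (16 tested), Phgdh, the first enzyme of serine synthesis, had the smallest p, with a difference of -2.68 (limma, adjusted p = 0.0734), and in fructose and polyol use (4 tested) sorbitol dehydrogenase, Sord, with -1.70 (limma, adjusted p = 0.140).

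**Figure D5:**
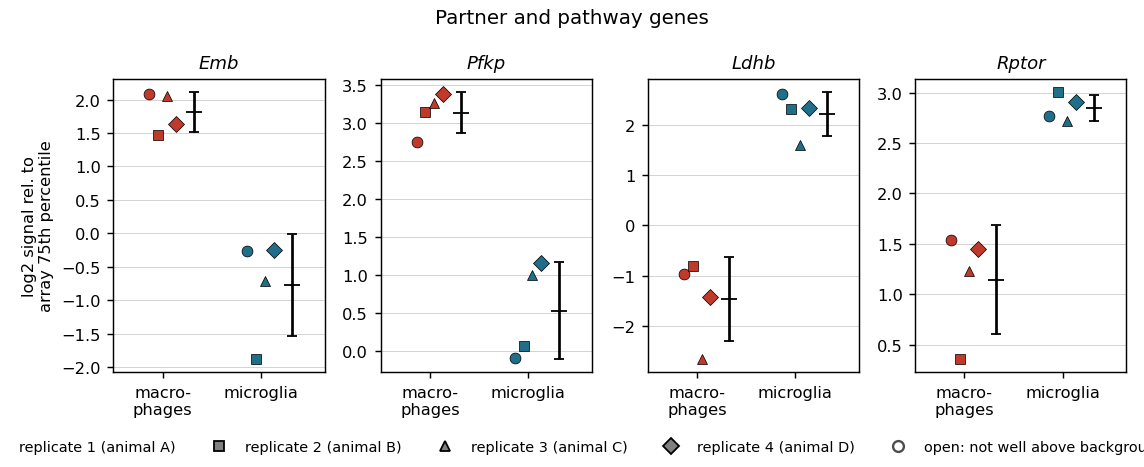
Log2 signal relative to the array's 75th percentile (y axis) of Emb, the partner of monocarboxylate carriers, and of Pfkp, Ldhb and Rptor, for the macrophage arrays (left, red) and the microglia arrays (right, blue) of animals A to D, with mean and SD. Every macrophage array lies above every microglia array for Emb and Pfkp, and below every microglia array for Ldhb and Rptor.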

How the data were processed

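Gene expression was measured in 8 samples on one-colour Agilent arrays, 4 of invading macrophages and 4 of resident microglia. Per the labels, amplified cDNA was labelled with Cy3. Per the file headers, Feature Extraction 10.7.3.1 produced a background-subtracted processed signal, an intensity that the authors deposited without normalization between arrays. The authors also deposited their own processed log2 table of these samples. Its column medians were 4.604 to 4.606, and its normalization is not given in the sources used here. It served as an alternative.

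Control spots and outlier flags were left out, spots of a probe were averaged, and log2 signals were expressed relative to each array's 75th percentile. All 103 gene names matched the RefSeq gene table, 129 probes by accession and 11 by symbol. Of 17 members with several passing probes, 6 (Slc16a10, Slc16a13, Slc16a7, Slc38a1, Slc7a15 and Slc7a5) had probes of opposite sign. Macrophages were compared with microglia with limma 3.58.1 (lmFit and eBayes, two-sided, R 4.3.3), adjusted by Benjamini and Hochberg over 19750 gene names. The number of arrays limits the precision. The scripts were checked on simulated data. There the test recovered 9.1% of changes of 1 on the log2 scale, 55.2% of changes of 2 and 79.1% of changes of 4. A difference that did not pass is therefore no sign of equal levels.

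The labels name the animal of each sample, which pairs the samples. The correlation across genes between both samples of an animal, after subtracting group means, was 0.0630 for A, 0.102 for B, 0.0647 for C and -0.0122 for D. The fit without the animal is reported, and the blocked fit stands beside a result whose call it changes.

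Members, lists and tests were chosen with earlier results of these data known. Named are called members, the largest difference of each family, a set of landmark members, and for each pathway list its called genes or the one with the smallest p. Other genes named were chosen after their values were seen. The values of 2 members are not reported here.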

Additional observations from a re-analysis of the deposited data

Results flagged for a closer look

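Of 62 groups of 4 arrays examined, 6 held an array far from the other 3 for a tested transporter, and chance alone flags about 1 group in 20. In 5 of the 6 the array was macrophage replicate 2. On it Slc16a10 was at -3.22 (log2 scale of the report), with the nearest other macrophage array at 0.21. Slc7a8 was at -1.14 on it, with the nearest at 1.47. For Slc16a6 it had 1.59, against 3.30 on the nearest, and for Slc38a1 1.36, against 3.06. Slc5a10 went the other way, at -0.98 on replicate 2 and -5.17 on the nearest, and the other 3 macrophage arrays were not well above background. In the microglia, Slc43a3 was at 1.45 on replicate 3, with the nearest at 0.52.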

How the results depend on the processing

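Under 23 alternatives none of the 29 named and tested members reversed a call. Slc1a3 stayed past the threshold under each alternative that tested it and Slc2a5 under each but the fit within slide 2 (the filter on all 8 arrays left both out), while Slc38a10, Slc38a6 and Slc7a7 lost their calls under 12, 15 and 13. Over 659 values of single members, 596 kept their direction or stayed uncalled on the same side of the threshold, 41 lost a call and 22 gained one; 30 differences changed sign with no call on either side. The count of 5 lower members became 2 with the replicate block (animal), 2 with the slide as a block, 3 with both, 3 within slide 1, 1 within slide 2, 2 with arrays centred on their medians, 2 with no filter on dim probes and 3 with probes well above background on all 8 arrays. Leaving out 1 array gave 2 to 7: 2 without any 1 microglia array or macrophage replicate 3, 3 without macrophage replicate 4 and 7 without macrophage replicate 2. The count of 0 higher members became 1 with slide and replicate block together, 1 with normexp, 1 with median centring and 4 with array quality weights, and 0 to 6 without 1 array, 6 being without macrophage replicate 2. The replicate block changed no call of a named member other than those given. Over all gene names the calls (higher, lower) were 496 and 817, against 255 and 483 with the replicate block, 271 and 579 with the slide, 2024 and 1671 with weights, and 1629 and 1355 without macrophage replicate 2. Median centring moved the median difference of all gene names to 0.22 and the percentile over probes detected on all arrays to -0.14, from 0.02. Signal over background limits the dim members: at 2 of 4 macrophage arrays Slc1a3 and Slc2a5 have only bounds on the fold. The cause of these changes was not tested.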
